A study of Mus musculus with 6 samples.

Results

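Dual-specificity phosphatases of the DUSP family remove phosphate from both the tyrosine and the threonine of the activation loop of MAP kinases, and so switch off the ERK, JNK and p38 kinases. Many of their genes are themselves switched on by MAP kinase signaling, which makes them both brakes on a signal and readouts of it. In T cells they are known as negative feedback regulators of T cell receptor signaling. The 10 genes described here were selected on family membership (Dusp1, Dusp2, Dusp4, Dusp5, Dusp6, Dusp7, Dusp8, Dusp10, Dusp14 and Dusp16), with the KO-minus-WT differences of these same libraries already known. Their differences between groups are therefore given as a description and not as tests. All 10 of these genes had a row among the 32285 rows of the count table, and all 10 passed the filter on low counts.

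The data are bulk RNA-seq counts of regulatory T cells (Tregs), sorted as CD4+CD25+ cells from the spleens of C57BL/6 mice, with 3 libraries per group. The KO group carried floxed alleles of the zinc finger gene Zfp335 and ERCre, a Cre recombinase fused to a modified estrogen receptor that acts once tamoxifen is given. The labels call the WT animals wild-type littermates, whereas the methods of the study describe ERCre mice given tamoxifen as the controls. By those methods the mice were 6 weeks old, were given 3 tamoxifen injections and were sacrificed on day 7. ERCre is not restricted to Tregs, so other cells of these mice may also have lost Zfp335. The labels do not say whether each library came from a separate animal, and the spread between libraries may therefore be technical in part.

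Zfp335, the targeted gene, was lower in KO at 14.3 to 15.1 CPM, against 115 to 124 CPM in WT (log2 fold change -3.02, standard error 0.046, edgeR adjusted p = 1.2e-13). CPM are counts scaled to a common library size by edgeR's TMM method. The library totals were between 133283969 and 209041812 counts. Foxp3 (1136 CPM in WT and 1052 CPM in KO), Il2ra, which encodes CD25, and Cd4 were abundant in both groups, as the sort implies. Xist, the RNA that coats an inactive X chromosome in females, averaged 0.272 ± 0.132 CPM over the WT and 134.6 ± 10.4 CPM over the KO libraries (SD, n = 3 each), and the labels give no sex. Markers of other cells differed as well. The summed level of 5 B cell markers was 45.4 to 49.5 CPM in WT and 21.1 to 23.0 CPM in KO, that of 6 myeloid markers 46.2 to 50.8 and 26.7 to 29.1 CPM, and that of 5 red cell markers 35.9 to 42.9 and 1.67 to 2.15 CPM. In edgeR's quasi-likelihood test 14 of these 16 markers passed an adjusted p of 0.05 as lower in KO, and the myeloid genes Csf1r (log2 fold change 0.22) and Cd68 (-0.23) did not pass. Of 5 CD8 T and NK cell markers, summed to 18.2 to 19.3 CPM in WT and 16.9 to 17.9 CPM in KO, 1 was lower (Gzma, log2 fold change -0.50, adjusted p = 0.0068), and 2 were without KO replicate 2. Xist split along genotype, at 0.187 to 0.424 CPM in the WT libraries and 124 to 145 CPM in the KO libraries. A difference of sex that follows Xist therefore cannot be told apart from genotype in these libraries. The part of sex or of other cells in the differences described next was not tested.

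RefSeq promoter windows on GRCm38.p6 run from 250 bases before to 50 bases after the annotated start of a gene. They were matched for 9 of the 10 genes, and Dusp4, which had no window, was not searched. For Dusp1 and Dusp10 this start lies well inside the gene span given below. To a lesser degree it also lies inside the spans of Dusp5, Dusp8 and Dusp14. The whole windows of Dusp1, Dusp8, Dusp10 and Dusp14 fall within their gene spans. Starts elsewhere in a span were not searched. The following stretches cover positions -150 to -51 from the start and are shown for the DUSP genes whose windows hold a cAMP response element or an SRF box, with Dusp10, which differed most between the groups and whose window holds neither. Capitals mark these elements: the cAMP response element (CRE, TGACGTCA) and the SRF box, which binds the serum response factor and is a known element of genes switched on by ERK.

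Dusp1 (chr17:26508523-26508622, minus strand): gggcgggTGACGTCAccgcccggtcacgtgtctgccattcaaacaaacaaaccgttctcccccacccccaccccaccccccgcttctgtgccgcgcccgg

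Dusp8 (chr7:142095335-142095434, minus strand): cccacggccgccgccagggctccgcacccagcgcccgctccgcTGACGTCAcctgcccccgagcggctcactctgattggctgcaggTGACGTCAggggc

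Dusp5 (chr19:53528995-53529094, plus strand): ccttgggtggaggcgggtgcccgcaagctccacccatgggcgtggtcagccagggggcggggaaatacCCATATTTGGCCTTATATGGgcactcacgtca

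Dusp10 (chr1:184034231-184034330, plus strand): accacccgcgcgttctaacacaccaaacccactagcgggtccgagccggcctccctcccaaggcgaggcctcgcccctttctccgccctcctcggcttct

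Dusp1 held 1 CRE, at positions -143 to -136, and Dusp8 held 2 CREs, at -107 to -100 and -63 to -56. Dusp5 held 2 SRF boxes in direct succession, at -82 to -73 and -72 to -63. Among all 32851 windows of the same length, 1.79% held a CRE and 1.63% an SRF box, searched on both strands. The GC box (GGGCGG) was matched in 8 of the 9 windows, all but that of Dusp6, against 35.7% of all windows, and the E box (CACGTG) in those of Dusp1 and Dusp2, against 7.15%. The windows were also searched for the AP-1 site (TGANTCA, in 7.81% of all windows), the NF-kB site (8.46%), the TATA box (TATAAA, 13.6%), the ETS site (CCGGAAG, 8.86%) and the FOXO site (GTAAACA, 3.65%), and 0 of the 9 windows held any of them. The 250 bases before the start were between 56.4% and 77.2% G and C in the 9 genes, with a median of 52.4% over all windows. A match describes letters of the reference and was not measured as binding in these data. The genes are spread over 10 chromosomes.

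To describe which phosphatases these Tregs contained, levels were divided by exon length and scaled to a fixed total per library (TPM), so that genes can be compared within a library. In WT, Dusp1, a nuclear phosphatase that acts on p38, JNK and ERK, was the most abundant at 1052 ± 21.3 TPM (SD, n = 3 libraries). Dusp2, a nuclear phosphatase first found in activated lymphocytes, followed at 937 ± 65.0 TPM. Then came Dusp5 at 442 ± 11.5 TPM, Dusp4 at 253 ± 13.6 TPM and Dusp10 at 124 ± 10.9 TPM. Dusp6 and Dusp7, which act on ERK in the cytoplasm, were at 79.3 ± 3.06 and 48.9 ± 1.80 TPM. Dusp14 was at 8.88 ± 0.551 TPM, Dusp16 at 1.96 ± 0.139 TPM and Dusp8 at 0.983 ± 0.035 TPM (SD, n = 3 libraries each).

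The order was the same in KO by group means, with Dusp1 at 1263 ± 30.8 TPM and Dusp8 at 2.47 ± 0.10 TPM (SD, n = 3 libraries each). Neighbors in this order did not overlap between libraries of a group, with 1 exception. In KO, Dusp16 at 2.45 to 2.52 TPM and Dusp8 at 2.38 to 2.58 TPM could not be ordered beyond their spread. In WT the lowest Dusp1 value, 1030 TPM, was close to the highest Dusp2 value, 1009 TPM, and the distance between them was less than the SD of Dusp2. With the longest transcript as the length of every gene, the order in WT was the same and the levels differed (333.5 TPM for Dusp5).

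Summed over the 10 genes, the length-scaled level was 2947 ± 107 TPM in WT and 4085 ± 43.8 TPM in KO (SD, n = 3 libraries each), which is 1.39 times as high. The 4 nuclear, inducible phosphatases (Dusp1, Dusp2, Dusp4 and Dusp5) made up 91.1% of this sum in WT and 87.6% in KO. The 3 genes whose proteins prefer JNK and p38 (Dusp8, Dusp10 and Dusp16) went from 4.29% to 8.46% of the sum, nearly all of it Dusp10. Dusp1 made up 35.7% in WT and 30.9% in KO, and Dusp2 31.8% and 24.2%. Dusp5 made up 15.0% and 19.5%, and Dusp4 8.57% and 13.0%. In these bulk libraries, more cells with a transcript and more transcript per cell cannot be told apart.

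**Figure D1:**
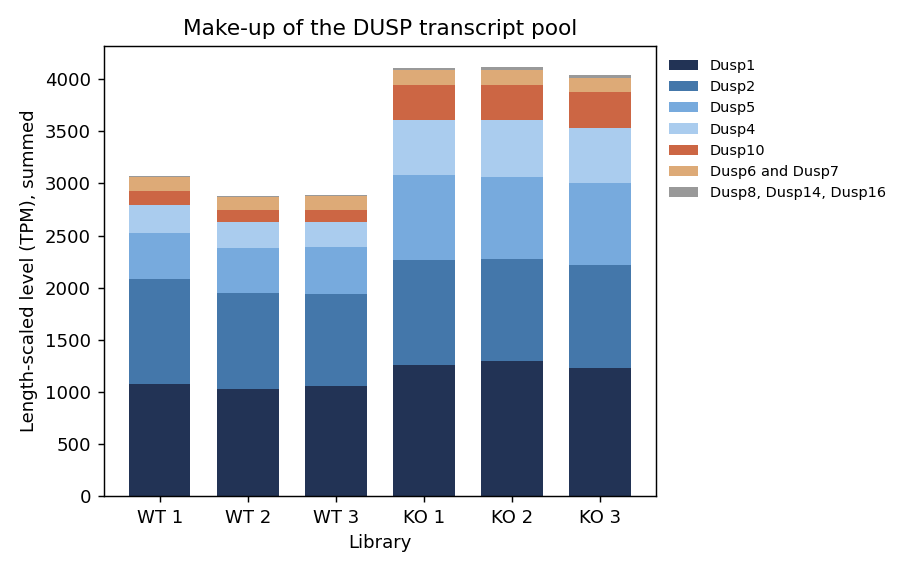
Stacked bars of the length-scaled levels (TPM, linear axis from 0) of the DUSP genes in each of the 6 libraries. The whole bar is 2883 to 3071 TPM in the WT libraries and 4035 to 4112 TPM in the KO libraries, and the segments of Dusp1, Dusp4, Dusp5 and Dusp10 are taller in every KO library than in every WT library.

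Between KO and WT, the 10 genes fell into a group of large differences and a group of small ones. Dusp10, Dusp8, Dusp14, Dusp4 and Dusp5 were between 1.82-fold and 2.79-fold higher in KO. Dusp16, Dusp1 and Dusp6 were between 1.21-fold and 1.28-fold higher. Dusp2 was at 1.07 times and Dusp7 at 0.911 times its WT level. In the edgeR fit 8 of the 10 genes were called higher and 1 lower at an adjusted p under 0.05, where 12.0% of the 17307 genes tested were called higher, 12.1% lower and 24.1% in either direction. All 5 genes of the first group passed the cutoffs of the study's methods (a change of 1.5-fold or more with a p under 0.05 and an adjusted p below 0.1), which 2.58% of all genes tested passed upward. Because these differences were known when the genes were chosen, nothing is read from these counts. The median log2 fold change was 0.61 over the 10 genes and -0.004 over all genes tested.

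**Figure D2:**
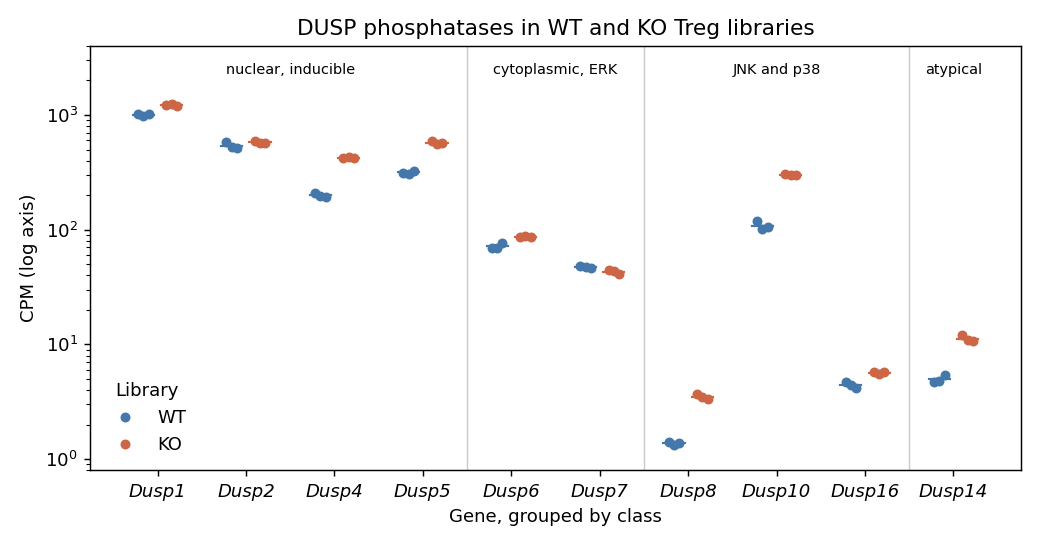
CPM of each DUSP gene (log axis) in the 3 WT and 3 KO libraries, one point per library with a short line at the group mean, ordered by class. The KO points of Dusp4, Dusp5, Dusp8, Dusp10 and Dusp14 lie well above the WT points, those of Dusp2 overlap, and those of Dusp7 lie just below.

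Among the nuclear, inducible phosphatases, Dusp4 and Dusp5 stood apart from Dusp1 and Dusp2. Dusp4, which lies on chromosome 8 of GRCm38 from 34807297 to 34819894, was at 209, 198 and 192 CPM in WT replicates 1, 2 and 3 and at 424, 433 and 418 CPM in KO replicates 1, 2 and 3. The lowest KO library was 2.0 times the highest WT library. The log2 fold change was 1.09 (standard error 0.037), or 2.13-fold. Dusp5, an ERK-specific phosphatase of the nucleus on chromosome 19 from 53529109 to 53542431, was at 315, 305 and 327 CPM in WT and at 589, 562 and 571 CPM in KO. Each KO library was above each WT library, by at least 1.72 times, and the log2 fold change was 0.86 (standard error 0.036). An annotated antisense RNA, AC137853.2, shares 547 bases with Dusp5 exons (22.1% of them), and without a stated strand setting the reads of the pair cannot be told apart.

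Dusp1, annotated on chromosome 17 from 26505590 to 26562128, was already the most abundant member in WT. It was at 1016, 979 and 1022 CPM in WT and at 1228, 1245 and 1187 CPM in KO. The groups did not overlap, and the log2 fold change was 0.28 (standard error 0.033), or 1.21-fold. On this large base the difference of 215 CPM was of the same size as those of Dusp4 (225 CPM) and Dusp5 (258 CPM). Dusp1 shares 11 exon bases with Ergic1 on the other strand, which was higher in KO as well (96.1 and 131.5 CPM, log2 fold change 0.45, edgeR adjusted p = 3.09e-06). Dusp2, on chromosome 2 from 127336159 to 127338376, was at 578, 527 and 519 CPM in WT and at 591, 573 and 571 CPM in KO. WT replicate 1 lay above KO replicates 2 and 3, so the groups overlapped. The log2 fold change of Dusp2 was 0.094 (standard error 0.041), and it was not called. Without WT replicate 1 it was 0.14 and was called.

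The cytoplasmic phosphatases of ERK differed little and in opposite directions. Dusp6, a classical negative feedback gene of ERK signaling on chromosome 10 from 99263231 to 99267489, was at 69.8, 69.4 and 76.0 CPM in WT and at 86.3, 87.4 and 86.8 CPM in KO. The KO libraries all lay above the WT libraries, and the log2 fold change was 0.28 (standard error 0.041). Dusp7, on chromosome 9 from 106368632 to 106375724, was at 48.7, 47.1 and 46.3 CPM in WT and at 44.2, 43.8 and 41.4 CPM in KO. It was the only one of the 10 genes with every KO library below every WT library. Its log2 fold change of -0.14 (standard error 0.043) was called in the fit to all libraries, and lost its call in 5 of the 6 fits made without 1 library (all but the fit without WT replicate 3). Over those 6 fits it was between -0.15 and -0.11.

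Of the phosphatases that prefer JNK and p38, Dusp10 showed the largest log2 fold change of the 10 genes. It lies on chromosome 1 from 184013302 to 184075636 and was at 118, 102 and 105 CPM in WT and at 304, 302 and 301 CPM in KO. The KO libraries had a coefficient of variation of 0.492% (8.08% in WT), and the lowest KO library was 2.54 times the highest WT library. The log2 fold change was 1.48 (standard error 0.048), or 2.79-fold. Dusp8, on chromosome 7 from 142079490 to 142095843, was weakly expressed at 1.42, 1.33 and 1.39 CPM in WT and at 3.69, 3.46 and 3.38 CPM in KO, which rests on 187 to 259 counts per WT library and 650 to 717 per KO library. The groups did not overlap, and the log2 fold change was 1.34 with the widest standard error of the 10 genes, 0.123. Dusp16, a JNK phosphatase on chromosome 6 from 134715468 to 134792625, was at 4.67, 4.44 and 4.15 CPM in WT and at 5.74, 5.56 and 5.71 CPM in KO. It was higher in each KO library than in each WT library, and the log2 fold change was 0.35 (standard error 0.085).

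Dusp14 is an atypical member that lacks the docking domain of the others and is known to restrain T cell receptor signaling. It lies on chromosome 11 from 84048041 to 84069261 and was at 4.75, 4.80 and 5.42 CPM in WT and at 12.0, 11.0 and 10.7 CPM in KO. Every KO library was at least 1.97 times the highest WT library. The log2 fold change was 1.18 (standard error 0.081), or 2.26-fold.

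**Figure D3:**
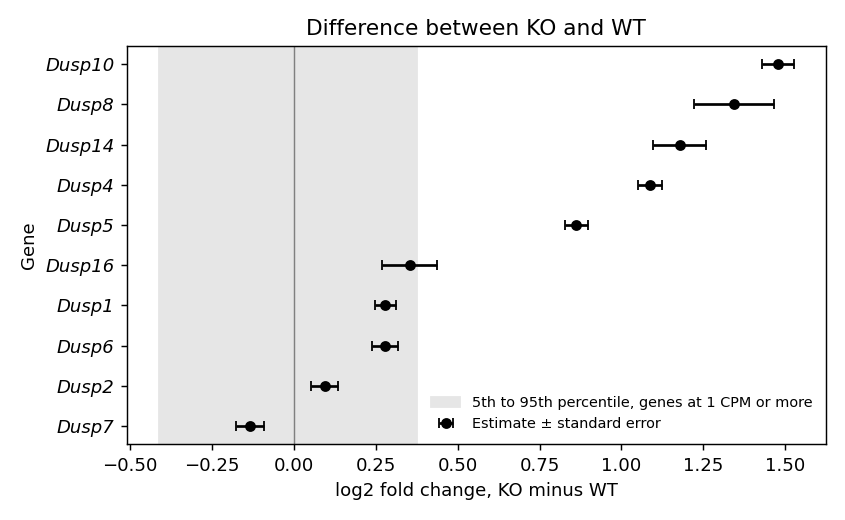
Log2 fold change (KO minus WT) of each DUSP gene with its standard error from the edgeR fit, ordered by size. The gray band spans the 5th to 95th percentile of the 12037 tested genes with an average of at least 1 CPM, from -0.41 to 0.38. Dusp5, Dusp4, Dusp14, Dusp8 and Dusp10 lie to the right of the band, and the other DUSP genes lie inside it.

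To see whether whole chromosome regions differed around the DUSP genes, the nearest tested gene that does not overlap it was examined on each side of each of them. Of these 20 flanking genes edgeR called 2 as higher in KO (adjusted p under 0.05) and did not call the other 18, a share near the 12.0% of all genes tested that were called higher, and their median log2 fold change was 0.021. The higher ones were Mirt1, a noncoding RNA gene 64313 bases from Dusp5 (log2 fold change 0.51, standard error 0.092, adjusted p = 0.00124), and Rpl29, a ribosomal protein gene 53730 bases from Dusp7 (log2 fold change 0.12, adjusted p = 0.0228). Ergic1, which overlaps Dusp1 and was higher in KO as described above, was left out of these flanking genes. The genes next to Dusp10, Hhipl2 and Hlx, were both under 1 CPM and lay at least 576494 bases away. Gm29243 near Dusp4, at 581152 bases, was under 1 CPM too, as were Astl near Dusp2 and Gm35035 near Dusp6. Those next to Dusp14, Synrg (log2 fold change 0.063) and Tada2a (0.001), lay within 9659 bases of it and were not called.

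Of 23 other genes for DUSP, STYX, CDC14 and slingshot phosphatases, 17 passed the filter. Of those, 2 were higher in KO (11.8%) and 1 was lower (5.88%), beside 12.0% and 12.1% of all genes tested, with a median log2 fold change of 0.026. The higher ones were Ssh1 (log2 fold change 0.25, edgeR adjusted p = 0.000431) and Ssh2 (0.098, adjusted p = 0.0471), slingshot phosphatases that act on the actin-severing protein cofilin. Dusp11, which acts on RNA rather than on MAP kinases, was lower, from 204 ± 16.0 to 179 ± 9.66 CPM (SD, n = 3 libraries each; log2 fold change -0.19, edgeR adjusted p = 0.03). Dusp9, the remaining typical MAP kinase phosphatase and outside the list of 10, had a mean of 0.952 ± 0.150 CPM over the WT and 0.937 ± 0.199 CPM over the KO libraries (SD, n = 3 each) and was picked out with its values known. In each fit without 1 library other than WT replicate 3, only 1 gene of this list was called higher. Without WT replicate 2, KO replicate 1 or KO replicate 2, 0 genes of this list were called lower.

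Dusp3, an atypical phosphatase of ERK and JNK, was at 1.19 CPM in WT and 0.894 CPM in KO (log2 fold change -0.44, standard error 0.203, edgeR adjusted p = 0.145). Dusp12, Dusp19, Dusp22, Dusp23, Dusp28 and the catalytically inactive Styx had log2 fold changes between -0.056 and 0.086 and were not called. The same held for Cdc14a (0.068), Cdc14b (-0.13) and Ssh3 (-0.13), where the 3 WT libraries of Cdc14b varied widely (SD 4.38 CPM around 12.3 CPM).

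Phosphatases of other families that act on MAP kinases were mixed. Of the 9 tested, 3 were higher in KO (33.3%) and 1 was lower (11.1%), against 12.0% and 12.1% of all genes tested. Ppm1l, a serine and threonine phosphatase that restrains stress kinase signaling, rose from 35.9 to 46.2 CPM (log2 fold change 0.37, edgeR adjusted p = 5.4e-05). Ptpn5, a tyrosine phosphatase of ERK and p38, rose by 0.32 on the log2 scale (adjusted p = 0.00354), and Ppm1a by 0.17 (adjusted p = 0.00459). Ptpn7, the tyrosine phosphatase of ERK found in blood cells, was the abundant one and fell from 286 to 238 CPM (log2 fold change -0.26, adjusted p = 5.07e-05). The catalytic subunits of PP2A, like the other genes that were not called below, are named after their values were seen and were not called, with log2 fold changes of 0.022 for Ppp2ca and 0.28 for Ppp2cb.

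The genes of the kinases that the DUSP proteins act on were called about as often as genes in general. Of 14 MAP kinase genes 1 was higher in KO (7.14%, against 12.0% of all genes tested), 2 were lower (14.3%, against 12.1%) and 11 were not called, with a median log2 fold change of -0.016. Mapk3, which encodes an ERK kinase, fell from 47.1 ± 0.144 to 41.8 ± 1.85 CPM (SD, n = 3 libraries each), with a log2 fold change of -0.17 (edgeR adjusted p = 0.0102). Without KO replicate 2 or KO replicate 3 only 1 MAP kinase gene was called lower. Mapk6, an atypical relative of ERK, was higher by 0.28 on the log2 scale (adjusted p = 0.00052). The JNK genes Mapk8 and Mapk9 and the main p38 gene Mapk14 had log2 fold changes between 0.041 and 0.048 and were not called.

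Upstream of the kinases, Map2k7, an activator of JNK, was the only gene called among 7 MAP2 kinases (log2 fold change 0.16, edgeR adjusted p = 0.00314), with 2 called without WT replicate 3. Of 12 listed MAP3 kinases other than RAF, 4 were higher by edgeR's test at an adjusted p under 0.05 (33.3%, against 12.0% of all genes) and 8 were not called. These were Map3k20 (from 0.817 to 1.67 CPM, log2 fold change 1.03), Map3k8 (0.28), Map3k3 (0.20) and Taok1 (0.16). Among 14 genes of RAS, RAF and their regulators 2 were higher (14.3%) and 3 were lower (21.4%), against 12.0% and 12.1% of all genes tested. The scaffold gene Ksr1 (0.32) and the RAS inhibitor gene Nf1 (0.19) were higher, and Rasa3 (-0.28), Rasa1 (-0.17) and Nras (-0.17) were lower. Only 1 of the 14 was called lower without WT replicate 2, KO replicate 1 or KO replicate 2, and only 1 was called higher without any single KO library.

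Downstream, 16 kinases and transcription factors that MAP kinases phosphorylate gave 4 higher (25%) and 3 lower genes (18.8%), against 12.0% and 12.1% of all genes tested. Mapkapk5 (log2 fold change 0.39, edgeR adjusted p = 6.58e-05) and Mapkapk2 (0.22, adjusted p = 0.000228), which are activated by p38, were higher. Their relative Mapkapk3 was not called (0.010, adjusted p = 0.87). Mknk2 (0.15, adjusted p = 0.0114) and Mknk1 (0.13, adjusted p = 0.0477) were higher as well. The ERK-activated kinase genes Rps6ka1 (-0.24, adjusted p = 0.000147) and Rps6ka3 (-0.19, adjusted p = 0.00373) were lower, as was Rps6ka5 (-0.19, adjusted p = 0.0443). Without WT replicate 2 or KO replicate 1, 2 genes of this list were called higher. The transcription factor genes Elk1, Elk3, Elk4, Srf and Atf2 were not called.

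Genes that ERK signaling is known to induce, among them feedback inhibitors and immediate-early factors, were listed next. Of 17 such genes 8 were higher in KO (47.1%, against 12.0% of all genes tested), 3 were lower (17.6%, against 12.1%) and 6 were not called, with a median log2 fold change of 0.30. Of the feedback inhibitors of the Sprouty and Spred families, Spry1, Spry2, Spred1 and Spred2 were higher, and Spry4 (log2 fold change 0.55, edgeR adjusted p = 0.0712) and Spred3 (0.33, adjusted p = 0.365) were not called. Spry1 rose from 64.4 ± 2.38 to 88.5 ± 2.56 CPM (SD, n = 3 libraries each; log2 fold change 0.46, edgeR adjusted p = 2.77e-06). Errfi1, an inhibitor of receptor tyrosine kinases, rose from 15.5 to 27.7 CPM (log2 fold change 0.84, adjusted p = 1.24e-07). Spry2, at 2.01 CPM in WT, also rose by 0.84 (adjusted p = 0.000391), and Spred1 by 0.31 (adjusted p = 0.00123). Fosl1 rose from 0.649 to 1.23 CPM (log2 fold change 0.90, adjusted p = 0.00611).

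The lower genes of this list were Fos, Egr3 and Myc, which are named after their values were seen. Fos fell from 1040 ± 23.7 to 895 ± 4.51 CPM (SD, n = 3 libraries each; log2 fold change -0.22, edgeR adjusted p = 0.000211), Egr3 by 0.19 (adjusted p = 0.00317) and Myc by 0.19 on the log2 scale (adjusted p = 0.00333). Egr1, the classical immediate-early target of ERK, averaged 263 CPM in WT and 252 CPM in KO (log2 fold change -0.065, adjusted p = 0.169). Dusp4, Dusp5, Dusp8, Dusp10 and Dusp14 differed in the opposite direction from Fos, Egr3 and Myc. They differed in the same direction as the 8 higher genes of this list. All of these genes were sorted by direction with their values known, so nothing is read from either comparison.

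**Figure D4:**
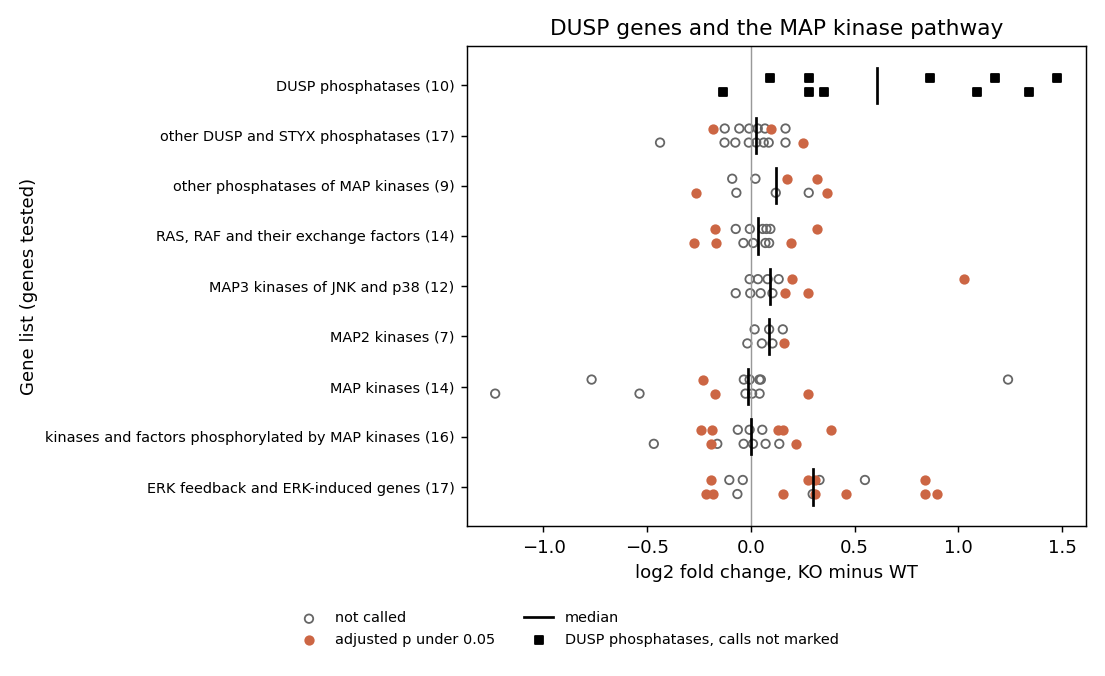
Log2 fold changes (KO minus WT) of the DUSP genes (black squares) and of the tested genes in lists around the MAP kinase pathway, one point per gene, with filled points for genes called at an adjusted p under 0.05 and a line at the list median. The DUSP genes have a median of 0.61, the ERK feedback and ERK-induced genes 0.30, and the MAP kinases -0.016.

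Several DUSP genes are also switched on by handling of tissue, so genes known to be induced by dissociation were listed as a sign of sample treatment. Of 16 such genes 9 were higher in KO (56.2%, against 12.0% of all genes tested) and 2 were lower (12.5%, against 12.1%), Fos and Dnajb1 (log2 fold change -0.15, edgeR adjusted p = 0.00557), with a median log2 fold change of 0.19. The summed level of the list was 9501 to 9981 CPM in WT and 11910 to 12250 CPM in KO. The genes that rose most were Nr4a1 (log2 fold change 0.70, adjusted p = 5.44e-08), Atf3 (0.67), Junb (0.53), Fosb (0.53) and Nfkbia (0.41). Zfp36 (0.014), Hspa1b (0.028) and Hsp90aa1 (-0.033) were not called. Fos, Egr1 and Ier3 stand in both of these last lists. These genes are induced by T cell activation too, and the part of sample handling in the DUSP differences was not tested.

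The Treg markers showed no uniform shift beside the DUSP genes. Of 6 Treg and CD4 T cell markers, Ctla4, an inhibitory receptor that activation raises, rose from 410 to 645 CPM (log2 fold change 0.65, edgeR adjusted p = 9.56e-09), while Il2ra (-0.15, adjusted p = 0.00658) and Foxp3 (-0.11, adjusted p = 0.0163) fell. Only 1 of the 6 markers was called lower without KO replicate 1 or KO replicate 3, and 0 were without KO replicate 2. Cd3e, Cd4 and Ikzf2 were not called. The summed level of the 6 genes was 3353 to 3393 CPM in WT and 3434 to 3491 CPM in KO.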

How the data were processed

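Count data of 6 libraries of splenic CD4+CD25+ Tregs were used, 3 WT and 3 KO, grouped by their titles. The deposited values are raw read counts, with rows named by gene symbol. Their processing notes name HISAT2, DESeq2 and mm10, and the counter, annotation and strand setting of this table are not given in the sources used here. Counts of 1 (620 entries) were rarer than counts of 4 (2579 entries). The cause was not tested, and no counting intervals were derived from the totals. Of the 32285 rows 40 repeat a symbol, and the row with most counts kept the name.

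From these counts, edgeR 4.0.16 in R 4.3.3 gave TMM-scaled CPM and a robust quasi-likelihood test (legacy=FALSE) on the 17307 genes kept by filterByExpr, with Benjamini-Hochberg adjustment and calls at an adjusted p under 0.05. The study's cutoffs were a change of 1.5-fold or more with a p under 0.05 and an adjusted p below 0.1. Positions and exon lengths came from GENCODE M21 (GRCm38, the build of mm10), with 31432 symbols matched for TPM, and promoters from RefSeq. Named genes were the 10 DUSP genes, other listed phosphatases with a mean of at least 1 CPM, and of each other list at most the 5 called genes with the largest log2 fold changes, besides Zfp335 and Xist. Other genes are named after their values were seen, and some genes that the rule names are not reported here. The members and all lists were chosen with earlier results of these data known. The fit was tested on simulated data, and no result of that test is given here.

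Alternatives were other scalings, filters and tests (DESeq2 1.42.0, limma-voom with limma 3.58.1, the legacy edgeR method), the replicate block, fits without each library in turn, a table without haemoglobin, immunoglobulin, mitochondrial and ribosomal protein genes, the longest transcript as length and, added after seeing the data, counts divided by 4. Ribosomal protein genes were taken out by the start of their symbols, which also removed the Rps6ka kinase genes. No 2 libraries agreed within sampling noise (chi-square per degree of freedom at least 12.7).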

Additional observations from a re-analysis of the deposited data

How the results depend on the processing

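Over the 17 alternatives, the log2 fold changes of all 10 DUSP genes kept their sign and moved by less than the spread between replicates. Dusp10 was between 1.43 and 1.55, Dusp8 between 1.31 and 1.37, Dusp14 between 1.13 and 1.23, Dusp4 between 1.06 and 1.12 and Dusp5 between 0.83 and 0.89. The count of DUSP genes called higher was 8, and 9 without WT replicate 1. With the replicate block it was 8 higher and 1 lower, and 4227 genes were called in all. Same-numbered libraries had correlations of 0.052, -0.010 and -0.027 in their deviations from the group means, and not every library correlated best with its own number. With 3 libraries per group, deviations from a mean are tied to each other. These values therefore cannot decide whether same-numbered libraries were paired.

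Among fits to all libraries, the genes past the study's cutoffs numbered 1203 in the reported fit and 533 among genes with a mean of at least 1 CPM, a filter that tests fewer genes. The other counts that moved by more than 1.5 times in these fits were of 5 genes or fewer. With library size only, 1 of the other DUSP and STYX genes was higher and 2 were lower, 3 of the other phosphatases of MAP kinases were lower, 1 gene of the RAS and RAF list was higher and 5 ERK-induced genes were lower. The upper-quartile factors and the edgeR legacy method each called 1 of the other DUSP and STYX genes higher. Without haemoglobin and the other gene groups, 0 kinases and factors phosphorylated by MAP kinases were lower. The 3 lower genes of that list, Rps6ka1, Rps6ka3 and Rps6ka5, had been taken out, because their symbols begin like those of ribosomal protein genes. In the same fit 1 red cell marker was lower, since the haemoglobin genes were taken out. Counts divided by 4 gave 2 higher MAP kinases. Except for the filter on mean CPM and the genes taken out, the cause was not tested.

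Leaving out 1 library at a time, 2740 to 4996 genes were called in all (4170 with all libraries), with 0 to 1 DUSP gene lower, 1 to 2 other DUSP and STYX genes higher and 0 to 1 lower, 1 to 2 MAP kinases lower, 1 to 2 MAP2 kinases higher, 1 to 3 RAS and RAF genes higher and 1 to 3 lower, 2 to 5 phosphorylated kinases and factors higher, 0 to 3 Treg markers lower and 1 to 2 CD8 T and NK cell markers lower. The lowest total, 2740, was without WT replicate 2.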
